A study of Mus musculus with 10 samples.

Results

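Myokines are proteins that muscle fibres release and that act on the muscle itself or on other organs. The 8 genes described here encode myokines other than osteocrin and myostatin: Fndc5, Metrnl, Il15, Il6, Lif, Fgf21, Bdnf and Apln. They were taken as a named list from the probe sets whose platform annotation gives exactly 1 gene symbol, and all 8 were found, with 1 probe set each, among 22180 genes measured. The samples are the gastrocnemius, a mixed and mostly fast calf muscle, of 10 male NMRI mice, an outbred stock. The 5 control mice ate a natural ingredient diet with under 5 mg of carnitine in each kg. The 5 carnitine mice ate the same diet after 1000 mg of L-carnitine per kg had been mixed in. The mice entered the study at 3 weeks and were killed at 9, 15 or 18 months. The labels do not give the age of the mice on the arrays, so age may differ between arrays and was not used. Each mouse was measured on 1 Affymetrix Mouse Gene 2.0 ST array.

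Contraction, fasting and cell stress are the textbook triggers of myokine transcription. Fndc5 and Metrnl are known as targets of the coactivator PGC-1alpha, Fgf21 as a target of PPARalpha and of ATF4, and Il6 as a gene that contracting muscle switches on transiently. Il6 and Lif signal through the shared receptor chain gp130, Il15 through a receptor that shares chains with interleukin 2, Bdnf through TrkB, Fgf21 through FGFR1 with beta-klotho, and Apln through a G protein-coupled receptor.

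None of the 8 myokine genes passed the threshold between the diets. In limma, with Benjamini-Hochberg adjustment over all 22180 genes, 0 of 8 had an adjusted p below 0.05, and 0 genes of the whole array did (0%), while 1546 genes (6.97%) had an unadjusted p below 0.05. The mean was lower in carnitine muscle for 6 of the 8 genes and higher for Il15 and Apln, beside 52.3% of all genes with a lower and 47.7% with a higher mean. That share depended on brightness: of the 11089 genes brighter than the median gene, 32.2% had a lower mean. Only Fndc5, Il15 and Metrnl are among those, and the other members belong to the dimmer genes, where lower means were more common. Bdnf alone had an unadjusted p below 0.05, on the lower side, where 3.83% of all genes stood. The median difference of the 8 genes, carnitine minus control, was -0.14 on the log2 scale, against -0.01 for all genes and 0.06 for the brighter 11089. In none of the 8 did the groups separate without overlap, as they did in 1.11% of all genes. The mice are separate animals, but the study housed 5 mice to a cage and the cage of each mouse is not given. Cage and diet may therefore not be separable. The 5 arrays per diet limit the precision: the median standard error of a difference over all genes was 0.110.

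The arrays held muscle RNA, with the 10 fibre markers, such as Acta1 and Ckm, at means between 12.38 and 13.82. Control replicate 5 stood apart: its median correlation with the other arrays, taken across probe sets, was 0.976 against 0.987 to 0.991 for the rest, and its interquartile range was 2.20 against 2.39 to 2.59. To see which members had signal, their means were set against 1394 olfactory and vomeronasal receptor genes, which muscle is not known to use. Their 95th percentile, 5.78, served as the background level, and 58.8% of all genes lay above it. On control replicate 5 that percentile was 6.10, against 5.70 to 5.92 on the other arrays, so dim genes read higher there.

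Of the myokine genes, 5 lay above the background level and 3 at or below it. Fndc5 (mean 9.53 over the 10 mice), Il15 (7.63) and Metrnl (6.65) stood clear of it. Lif (6.04) lay 0.27 above and Apln (5.90) 0.13 above, which places both just inside. Fgf21 (5.66) lay just outside, 0.12 under the level, followed by Bdnf (5.26) and Il6 (group means 3.59 and 3.57). Il6 was no brighter than the silent receptors, 48.7% of which had an equal or higher mean. Probe sets differ in how strongly they bind, so these positions say which genes can be read, not which is more abundant. At the 99th percentile of the receptors, 6.81, only Fndc5 and Il15 would count as above background.

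**Figure D1:**
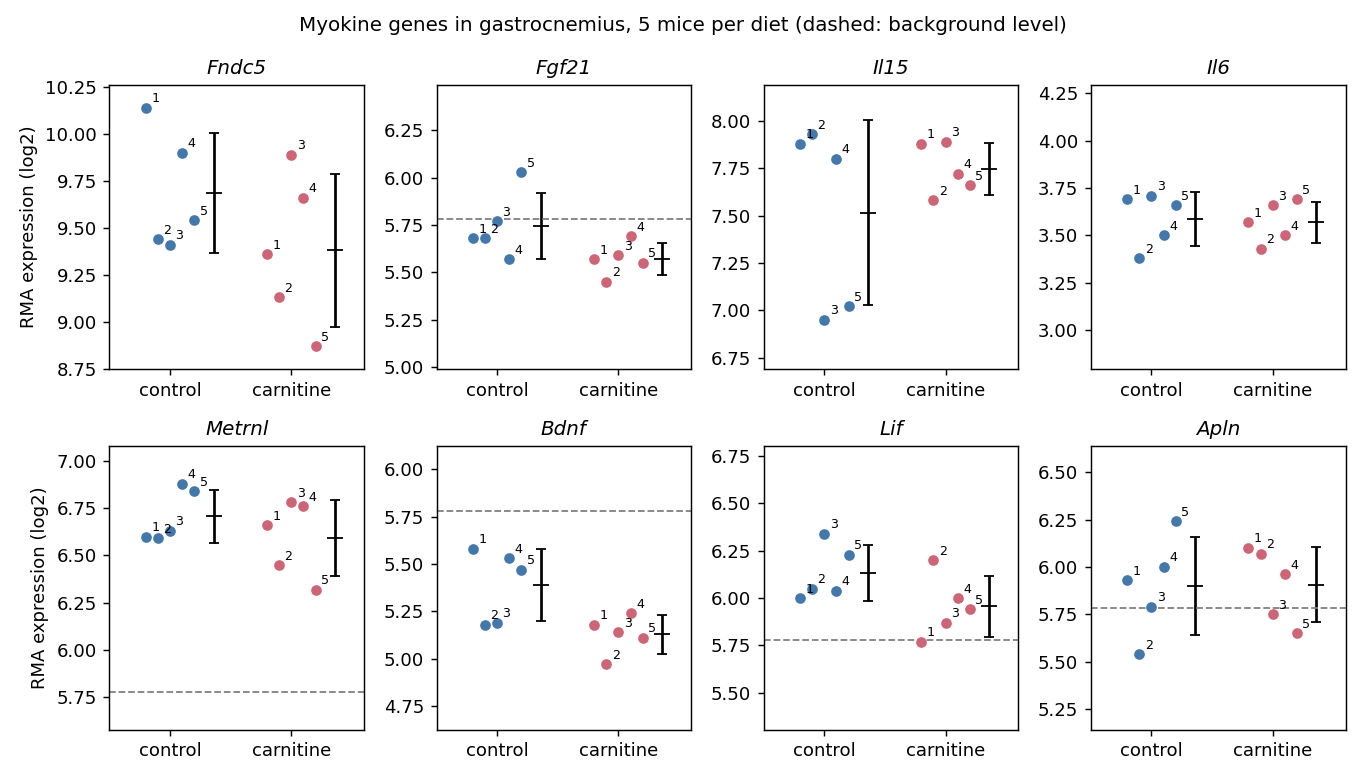
RMA log2 expression of the 8 myokine genes in each mouse, by diet, with the replicate number beside each point, the mean and SD of each group as black bars, and the background level of 5.78 as a dashed line where it falls in the panel. The groups overlap in every panel, Il15 is low in control replicates 3 and 5, and Il6 lies far below the background level.

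Fndc5 encodes the membrane protein from which irisin is cut. Its RMA log2 values in control mice 1 to 5 were 10.14, 9.44, 9.41, 9.90 and 9.54, and in carnitine mice 1 to 5 they were 9.36, 9.13, 9.89, 9.66 and 8.87. Carnitine mice 1, 2 and 5 lay below every control, while carnitine mice 3 and 4 lay among the controls. The control mean was 9.69 ± 0.32 and the carnitine mean 9.38 ± 0.41 (SD, 5 mice each). The difference was -0.30 (SE 0.186, 95% interval -0.70 to 0.09, adjusted p in limma 0.72), a level of 0.81 times control with an interval from 0.61 to 1.07 times. It was -0.18 without carnitine replicate 5 and -0.19 without control replicate 1. Fndc5 was among the more variable genes of the array: its SD within groups, 0.37, exceeded that of 96.8% of all genes, whose median was 0.18.

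Fndc5 followed the slow-fibre genes from mouse to mouse. The mean of 9 slow-fibre markers, among them the slow myosin gene Myh7 and the slow troponin gene Tnnc1, was 10.03, 9.21, 9.57, 9.76 and 9.17 in control mice 1 to 5 and 8.57, 7.74, 9.58, 9.87 and 7.11 in carnitine mice 1 to 5. The 3 carnitine mice with the lowest Fndc5 are thus the 3 with the lowest slow-fibre level, in the same order. Over the 10 arrays Pearson's r was 0.90 (permutation p = 6e-05, adjusted p = 0.0048) and Spearman's rho was 0.92 (permutation p = 0.00055, adjusted p = 0.044). The adjustment covered all 80 relations between the 8 genes and 10 lists of fibre and cell type markers, computed after the data had been seen, and this was the only relation below 0.05, while 11 were below 0.05 before adjustment. Without the 2 arrays farthest from the median of Fndc5, r was 0.81. Within control mice r was 0.85 and within carnitine mice 0.96. The adjusted p was 0.300 without carnitine replicate 5 (r = 0.83), 0.0688 without carnitine replicate 2 (r = 0.88) and 0.0696 without control replicate 4 (r = 0.89).

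The sign was the same for each slow-fibre gene, while the other fibre markers went both ways. With Fndc5, r across the 10 arrays lay between 0.87 and 0.90 for Myh7, Tnnc1, Tnni1, Tnnt1, Myl2, Myl3, Atp2a2 and Myoz2, and was 0.37 for Tpm3. It was 0.86 for Myh2, the myosin of fast oxidative fibres, and 0.80 for myoglobin, Mb. It was -0.62 for Myh4, the myosin of the fastest fibres, -0.74 for Actn3 and -0.72 for parvalbumin, Pvalb. For Myh1, another fast myosin, it was 0.67, and for Acta1, Ckm, Tnnt3 and Ttn it was 0.08, -0.02, -0.35 and -0.45. The mean of all 10 fibre markers had r = 0.64 with Fndc5 (adjusted permutation p = 0.34), so no clean split of slow against fast genes is shown. In bulk muscle, fewer slow fibres and less RNA per fibre cannot be told apart. With the slow-fibre mean as a covariate in limma, an alternative chosen after the data had been seen, the difference of Fndc5 between the diets was 0.05 (SE 0.128, adjusted p = 0.96). The covariate itself differed between the diets, at 9.55 ± 0.37 in control and 8.57 ± 1.18 in carnitine (SD). Of its 9 genes 8 were lower in carnitine, 6 with an unadjusted p in limma below 0.05, against 3.83% of all genes, and 0 passed the adjusted threshold. This fit therefore cannot separate slow-fibre level from diet.

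**Figure D2:**
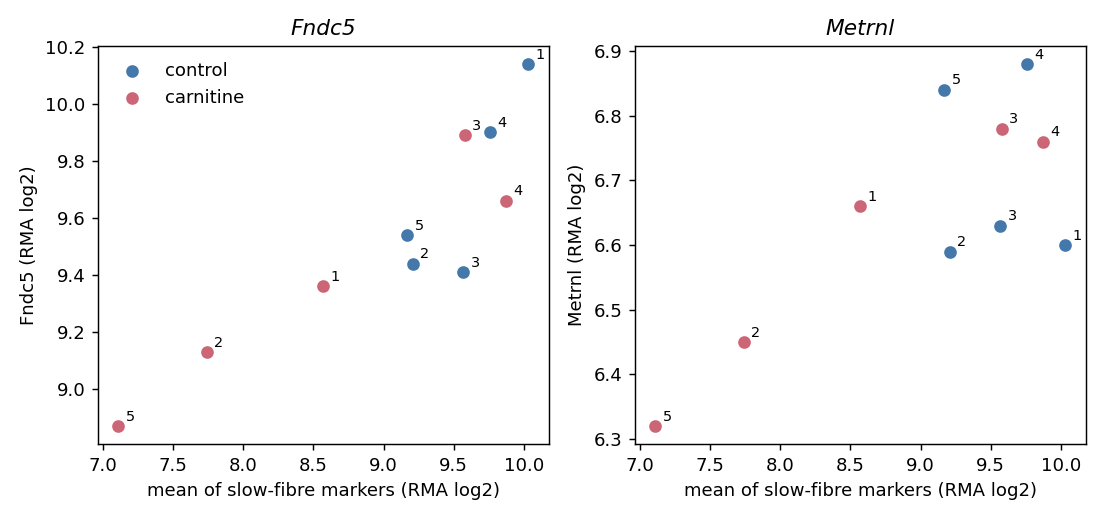
Expression of Fndc5 (left) and Metrnl (right) against the mean of the 9 slow-fibre markers, both in RMA log2, with 1 point per mouse, coloured by diet and marked with the replicate number. Over the 10 mice r is 0.90 for Fndc5 and 0.77 for Metrnl, whose adjusted permutation p of 0.337 misses the threshold.

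The genes most like Fndc5 over the 10 arrays, out of 11903 named genes above background, were Ldhb, Bdh1 and Nnt. Ldhb, the heart-type lactate dehydrogenase, had r = 0.96, and Bdh1, which oxidises ketone bodies, and Nnt, the mitochondrial transhydrogenase, had r = 0.95 each. Ldhb, like Fndc5, was lowest in carnitine mice 5 (8.81) and 2 (9.14) and highest in control mice 1 (10.46) and 4 (10.37). These are the best of a large search over few arrays that share the slow-fibre spread, and they are given as a description. For 7 pairs of a member and a textbook regulator, picked after the data had been seen, 0 passed the adjusted threshold. For Fndc5 and Ppargc1a, the gene of PGC-1alpha, r was 0.04 and rho -0.13 (permutation p = 0.916 and 0.723, adjusted over the 7 pairs 0.916 and 0.899). For Esrra, the partner ERRalpha, r was 0.27 and rho 0.27 (permutation p = 0.444 and 0.447, adjusted 0.916 and 0.783). Without the 2 arrays farthest from the median of Fndc5, r was -0.33 for Ppargc1a and 0.42 for Esrra. After cyclic loess, another scaling of the arrays, r was 0.20 for Ppargc1a and 0.43 for Esrra. The signs differed between the diets: for Ppargc1a r was 0.76 within control mice and -0.77 within carnitine mice. For Esrra it was -0.53 and 0.86, and these within-diet values were not tested.

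The DNA before the start of Fndc5 is shown beside that of Metrnl, the other PGC-1alpha target, and of Ldhb, the gene most like Fndc5, because Metrnl had the next highest r with the slow-fibre markers among the members. The sequences are RefSeq's on GRCm38.p6, read 5′ to 3′ on the gene's own strand and ending just before its outermost annotated start. Capitals mark the GC box GGGCGG on either strand, an element bound by SP1 and its relatives. Fndc5 lies on chr4:129136749-129136869 (plus strand), Metrnl on chr11:121702177-121702426 (plus strand) and Ldhb on chr6:142507958-142508207 (minus strand).
Fndc5: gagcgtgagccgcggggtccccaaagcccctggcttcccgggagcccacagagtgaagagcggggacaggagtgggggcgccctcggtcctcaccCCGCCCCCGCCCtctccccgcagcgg
Metrnl: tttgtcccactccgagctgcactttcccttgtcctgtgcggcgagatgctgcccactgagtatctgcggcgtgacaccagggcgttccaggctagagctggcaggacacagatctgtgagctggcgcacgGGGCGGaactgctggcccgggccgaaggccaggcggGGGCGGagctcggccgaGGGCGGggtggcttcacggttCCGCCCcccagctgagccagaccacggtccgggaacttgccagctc
Ldhb: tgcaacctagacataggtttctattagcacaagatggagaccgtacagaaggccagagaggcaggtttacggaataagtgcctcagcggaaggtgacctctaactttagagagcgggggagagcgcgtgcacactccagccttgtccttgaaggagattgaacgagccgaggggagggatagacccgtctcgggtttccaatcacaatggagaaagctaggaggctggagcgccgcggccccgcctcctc
The stretch shown holds 2 GC boxes for Fndc5, 4 for Metrnl and 0 for Ldhb. The whole 250-base window before the listed start of Fndc5, of which only the 121 bases outside any annotated transcript of the gene are shown, holds 3. Of all windows, 32.7% of the 250-base windows upstream of the 32851 starts in the table hold at least 1. The half-site of ERRalpha, AAGGTCA, searched on both strands, was in none of the 3 genes' 250-base windows and in 4.08% of all windows. The same was true of the MEF2 site, present in 2.92% of all windows. The E-box CANNTG was found once in the Metrnl window and not in the others, against 66.2% of all windows. A match is a description of the letters, and its absence says nothing of a factor. The table holds no entry for Il15.

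Metrnl encodes meteorin-like, a secreted factor known for acting on fat tissue and immune cells. Its log2 values were 6.60, 6.59, 6.63, 6.88 and 6.84 in control mice 1 to 5 and 6.66, 6.45, 6.78, 6.76 and 6.32 in carnitine mice 1 to 5. Carnitine mice 2 and 5 lay below every control and the other 3 among them. The means were 6.71 ± 0.14 and 6.59 ± 0.20 (SD, 5 mice each), and the diets differed by -0.11 (SE 0.11, 95% interval -0.35 to 0.12, adjusted p in limma 0.79). It was -0.05 without carnitine replicate 5, and 0.03 with the slow-fibre mean as a covariate (SE 0.113). With the slow-fibre markers r was 0.77 and rho 0.49 (permutation p = 0.00958 and 0.154, adjusted over the 80 relations 0.337 and 0.587), and without the 2 arrays farthest from the median of Metrnl r was 0.53. Within the 5 control mice r was -0.13 and within the 5 carnitine mice 0.97, a difference that was not tested. With Ppargc1a r was -0.54 and rho -0.67 (permutation p = 0.109 and 0.0368, adjusted over the 7 pairs 0.380 and 0.258), and r was -0.69 without the arrays farthest from the median of Metrnl. After cyclic loess that r was -0.26. The genes most like Metrnl were Col20a1 (r = 0.94), Lrrc52 (0.90) and Enc1 (0.88).

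Il15 encodes interleukin 15, which muscle makes in quantity and which sustains natural killer and memory T cells. Its log2 values were 7.88, 7.93, 6.95, 7.80 and 7.02 in control mice 1 to 5 and 7.88, 7.58, 7.89, 7.72 and 7.66 in carnitine mice 1 to 5. Control mice 3 and 5 stood 0.56 below the next lowest mouse, and the other 8 mice lay within 7.58 to 7.93 whatever their diet. The control mean was 7.52 ± 0.49 and the carnitine mean 7.75 ± 0.14 (SD, 5 mice each). The difference of 0.23 (SE 0.184, 95% interval -0.16 to 0.62, adjusted p in limma 0.75) shrank to 0.09 when control replicate 3 was left out and to 0.11 when control replicate 5 was. The medians went the other way, 7.80 in control and 7.72 in carnitine. Because the arrays fall into 2 and 8, correlations of Il15 with other measures are not given, apart from that with Lif among the pairs of members.

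The same 2 control mice were low in the 3 genes whose profile over the arrays was most like that of Il15. Plcb1, a phospholipase C, was at 6.39 and 6.33 in control mice 3 and 5 and at 6.72 or more in the other 8. Timm21, a subunit of the mitochondrial import machinery, was at 8.11 and 7.96 in those mice and at 8.40 or more in the others. Depdc7 was at 5.67 and 5.59 there and at 6.06 or more in the others. These genes were picked from 11903 for that likeness, so the shared split describes them and supports nothing further. Control replicate 5 is the array that stood apart, whereas control replicate 3 had a median correlation of 0.988 with the other arrays, in the range of the rest.

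**Figure D3:**
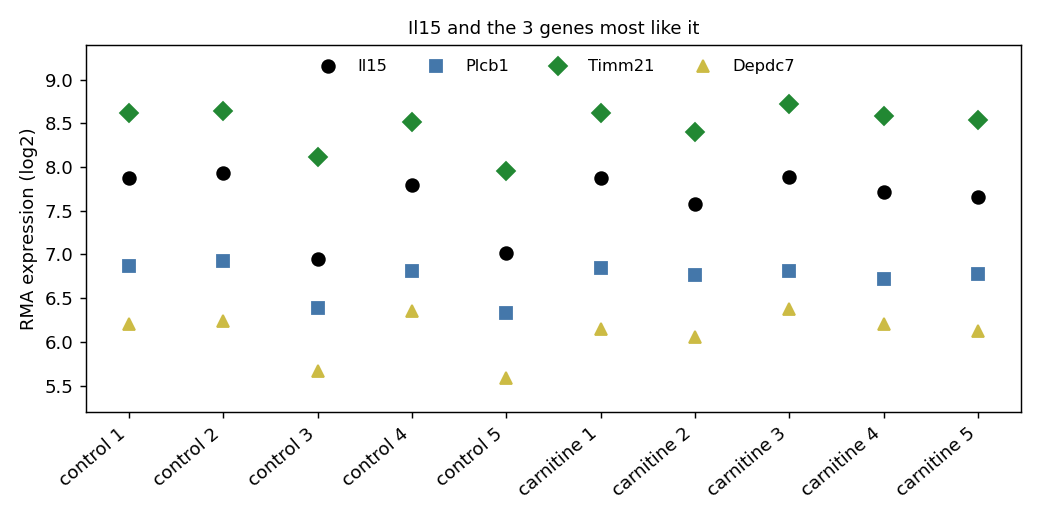
RMA log2 expression of Il15 and of Plcb1, Timm21 and Depdc7, the genes most like it, in each of the 10 mice. All 4 genes are low in control mice 3 and 5, where Il15 is at 6.95 and 7.02, and level in the other 8.

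The 2 cytokines that signal through gp130, Lif and Il6, lay on either side of the background level, Lif only 0.27 above it. At the 99th percentile of the silent receptors, 6.81, Lif too would count as near background. Lif encodes leukaemia inhibitory factor, which drives muscle precursor cells to divide. Its log2 values were 6.00, 6.05, 6.34, 6.04 and 6.23 in control mice 1 to 5 and 5.77, 6.20, 5.87, 6.00 and 5.94 in carnitine mice 1 to 5. Carnitine mice 1, 3 and 5 lay below every control, and the highest Lif values were those of control mice 3 and 5, in which Il15 was lowest. The means were 6.13 ± 0.15 and 5.96 ± 0.16 (SD, 5 mice each), and the diets differed by -0.18 (SE 0.104, 95% interval -0.40 to 0.05, adjusted p in limma 0.72). It was -0.12 without control replicate 3. The genes most like Lif were Sox21, Tmem238 and Nwd1 (r = 0.91 each).

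Il6 lay at the level of the silent receptors in every mouse, from 3.38 to 3.71, so these arrays give no reading of its transcript above background. The values were 3.69, 3.38, 3.71, 3.50 and 3.66 in control mice and 3.57, 3.43, 3.66, 3.50 and 3.69 in carnitine mice 1 to 5. The groups overlapped over nearly their whole range. The difference was -0.02 (SE 0.0927, 95% interval -0.22 to 0.18), and its sign changed when arrays were centred on their medians or put through cyclic loess.

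Fgf21 encodes a hormone that fasting liver and stressed muscle release, and its signal was just under the background level. The log2 values were 5.68, 5.68, 5.77, 5.57 and 6.03 in control mice 1 to 5 and 5.57, 5.45, 5.59, 5.69 and 5.55 in carnitine mice 1 to 5. Control mouse 5 was the highest, on the array whose background level was also the highest. The means were 5.75 ± 0.17 and 5.57 ± 0.09 (SD, 5 mice each), and the difference of -0.18 (SE 0.0986, 95% interval -0.39 to 0.04, adjusted p in limma 0.72) shrank to -0.11 when that mouse was left out. In the deposited values, textbook regulators of Fgf21 showed no clear relation with it over the 10 arrays. For Ppara r was -0.10 and rho 0.05 (permutation p = 0.816 and 0.888, adjusted 0.916 and 0.899). For Atf4 r was 0.09 and rho 0.35 (permutation p = 0.819 and 0.316, adjusted 0.916 and 0.738). These values depended on the scaling: after cyclic loess r was -0.12 for Ppara and 0.52 for Atf4, which was not tested. Without the 2 arrays farthest from the median of Fgf21, r was -0.21 for Ppara and 0.33 for Atf4. Within control mice r was -0.52 for Ppara and 0.15 for Atf4, and within carnitine mice 0.66 and 0.37, values that were not tested.

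Bdnf, the brain-derived neurotrophic factor that supports neurons and that muscle also makes, had the smallest p of the list and a dim signal. The log2 values were 5.58, 5.18, 5.19, 5.53 and 5.47 in control mice 1 to 5 and 5.18, 4.97, 5.14, 5.24 and 5.11 in carnitine mice 1 to 5. Control mice 1, 4 and 5 lay above every carnitine mouse, and control mice 2 and 3 lay among them. The means were 5.39 ± 0.19 and 5.13 ± 0.10 (SD, 5 mice each), and the diets differed by -0.26 (SE 0.104, 95% interval -0.48 to -0.04). The unadjusted p was 0.0239 and the adjusted p in limma 0.71, and an exact two-sided permutation test over the 252 splits of the arrays gave p = 0.0476, where 0.00794 is the smallest possible. After cyclic loess the difference was -0.19 (SE 0.0973, adjusted p in limma 0.86). Every value was below the background level of 5.78, so the difference lies in a range where unspecific binding forms part of the signal. With Creb1, an activator of Bdnf in neurons, r was 0.07 and rho 0.05 (permutation p = 0.840 and 0.899, adjusted 0.916 and 0.899), and r was -0.24 without the 2 arrays farthest from the median of Bdnf. After cyclic loess r with Creb1 was 0.57, which was not tested, so the value depended on the scaling.

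Apln encodes apelin, a peptide known for its action on vessels, heart and ageing muscle. The log2 values were 5.93, 5.54, 5.79, 6.00 and 6.24 in control mice 1 to 5 and 6.10, 6.07, 5.75, 5.96 and 5.65 in carnitine mice 1 to 5. Both extremes were control mice, with all carnitine values between them. The highest was control mouse 5, on the array whose background level was also the highest. Without that mouse the diets differed by 0.09 (SE 0.121), and without control mouse 2, the lowest, by -0.08 (SE 0.124). The means were 5.90 ± 0.26 and 5.91 ± 0.20 (SD, 5 mice each). The difference was 0.01 (SE 0.132, 95% interval -0.28 to 0.29, adjusted p in limma 0.99), with an interval of the fold from 0.83 to 1.22, and its sign turned when single arrays were left out. The genes most like Apln were Spring1, Pde10a and Cd79b (r = 0.88, 0.88 and 0.87). With Hif1a, the hypoxia factor known to drive Apln, r was -0.58 and rho -0.39 (permutation p = 0.0729 and 0.264, adjusted 0.380 and 0.738), and r was -0.43 without the 2 arrays farthest from the median of Apln. After cyclic loess that r was -0.39.

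The intervals bound what these arrays leave room for. The furthest an interval reached below control was 0.61 times for Fndc5, and the furthest above was 1.54 times for Il15. For Lif the interval of the fold ran from 0.76 to 1.03 and for Metrnl from 0.78 to 1.09. For the dim genes Fgf21, Bdnf and Il6 such bounds cover the measured signal only, which RMA draws together near the floor. Lif and Apln lie so little above the background level that the same limit applies to them.

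**Figure D4:**
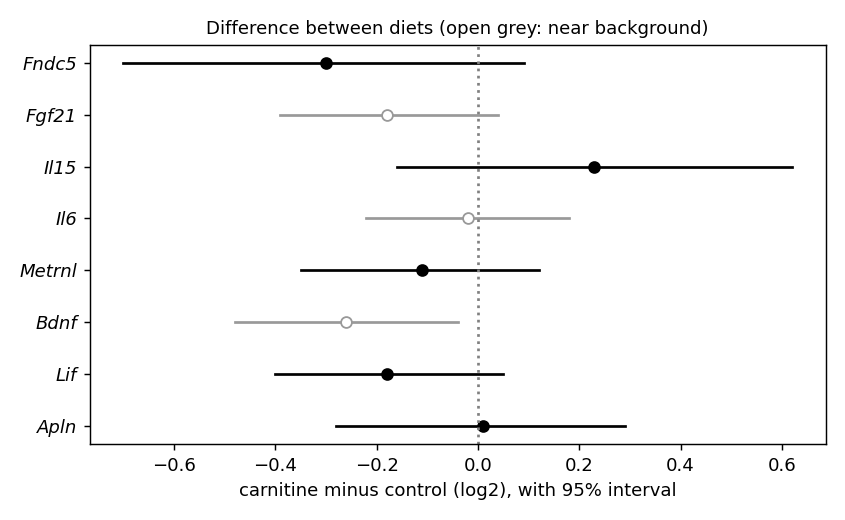
Difference between the diets for the 8 myokine genes, carnitine minus control in log2, as points with the 95% interval from limma, where open grey symbols mark the 3 genes at or below the background level. Only the interval of Bdnf, from -0.48 to -0.04, leaves out 0, and those of Fndc5 and Il15 are the widest.

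No pair of members passed the threshold for moving together. Of 28 pairs of members, 0 had an adjusted permutation p below 0.05 for Pearson's r, and 4 were below 0.05 before adjustment, 2 of them with Il15. Fndc5 and Bdnf had r = 0.73 and rho = 0.77 (permutation p = 0.0172 and 0.0111, adjusted p of r 0.209), with r = 0.60 without the 2 arrays farthest from the median of Fndc5. Fndc5 and Metrnl had r = 0.71 and rho = 0.64 (permutation p = 0.0224 and 0.0544, adjusted p of r 0.209), with r = 0.86 without those arrays. With the diet means removed, r was 0.66 for each of these pairs. The smallest p of the 28 was that of Il15 and Lif, with r = -0.82 and rho = -0.62 (permutation p = 0.00245 and 0.0601, adjusted p of r 0.0686). Without the 2 arrays farthest from the median of Il15, r was -0.53. Within control mice r was -0.96 and within carnitine mice -0.88, values that were not tested.

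No receptor gene of these myokines passed the threshold between the diets. Of 15 listed receptor genes 14 were measured, 11 of them above background. The mean was higher in carnitine for 9 and lower for 5 (35.7%). Of all genes 52.3% had a lower mean, and of the 11089 genes brighter than the median gene 32.2% did. The adjusted threshold was passed by 0 receptor genes, and an unadjusted p of 0.05 by 0, beside 6.97% of all genes. The largest difference above background was that of Aplnr, the apelin receptor, from 6.86 ± 0.36 to 7.06 ± 0.15 (SD, 5 mice each; 0.19, SE 0.149, 95% interval -0.13 to 0.51). Control values of Aplnr ran from 6.42 to 7.37 and carnitine values from 6.90 to 7.25, so that the carnitine mice lay inside the control range. Itgav and Itgb5, the integrin chains reported to bind irisin, differed by 0.12 (SE 0.091) and 0.08 (SE 0.141).

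The shared cytokine receptor chain gp130, encoded by Il6st, was bright and steady, at 10.17 ± 0.16 in control and 10.16 ± 0.08 in carnitine (difference -0.01, 95% interval -0.20 to 0.18). Its partners Il6ra and Lifr differed by -0.06 (SE 0.107) and -0.02 (SE 0.0996), and Il15ra by 0.01 (SE 0.133). Fgfr1, which takes up the FGF21 signal, differed by less than 0.01 (95% interval -0.22 to 0.23), while its co-receptor gene Klb was near background at 5.06 ± 0.27 and 5.12 ± 0.26. Ntrk2, which encodes TrkB, was near background too, at 4.98 ± 0.18 and 5.05 ± 0.12, and so was Il2rb. Among the other receptors of Bdnf, Sort1 differed by 0.09 (SE 0.21) and Ngfr by 0.02 (SE 0.124). Kit, reported to bind meteorin-like, had equal means within 0.01.

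**Figure D5:**
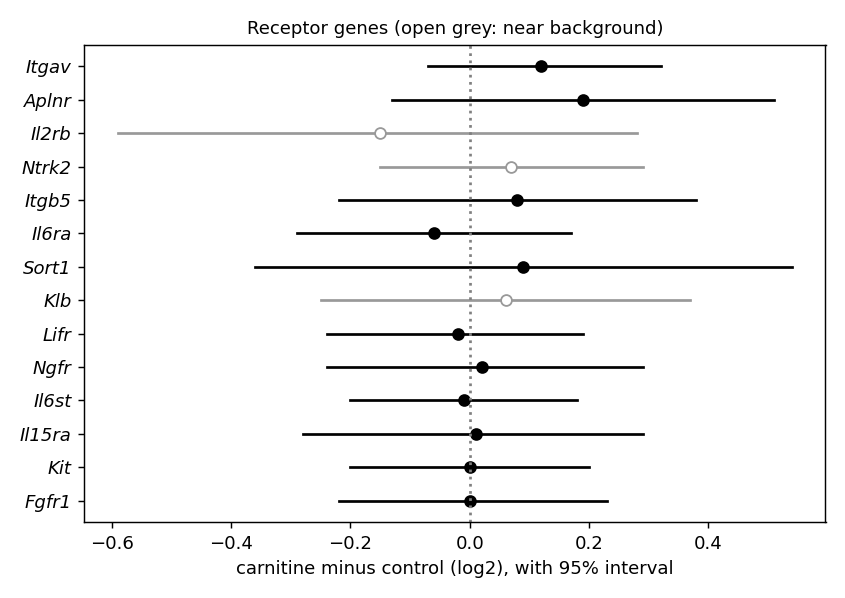
Difference between the diets for the 14 measured receptor and co-receptor genes, carnitine minus control in log2, with 95% intervals from limma and open grey symbols for the 3 genes near background. Every interval includes 0, and the point estimates lie between -0.15 and 0.19.

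Of the genes that relay these signals, 17 of 22 listed were measured, all above background. The mean was higher in carnitine for 13 and lower for 4 (23.5%), and 0 passed the adjusted threshold. A lower mean was found for 52.3% of all genes and for 32.2% of the 11089 genes brighter than the median gene. Map2k1, which encodes the ERK kinase MEK1, had a control mean of 8.56 ± 0.16 and a carnitine mean of 8.87 ± 0.11 (SD, 5 mice each; difference 0.31, SE 0.0957, adjusted p in limma 0.71). It was the 1 gene of this list with an unadjusted p below 0.05, a mark that 3.14% of all genes reached on the higher side. Stat5a (0.13, SE 0.0842), Dusp6, a feedback phosphatase of ERK (0.22, SE 0.148), and Stat5b (0.18, SE 0.151) followed. Socs3, the feedback inhibitor that IL-6 induces, differed by 0.05 (SE 0.0935).

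Of 22 upstream regulators 21 were measured, all above background, with 14 means higher and 7 (33.3%) lower in carnitine. That is near the 32.2% with a lower mean among the 11089 genes brighter than the median gene, against 52.3% of all genes. Past an unadjusted p of 0.05 in limma were 0 of the 21, against 6.97% of all genes. Hif1a differed by 0.24 (SE 0.114), Cebpb by -0.15 (SE 0.0887), the stress factor gene Atf3 by -0.36 (SE 0.234) and the NF-kB subunit gene Rela by 0.12 (SE 0.103). The lowest adjusted p of the list in limma was 0.71. Ppargc1a averaged 9.45 ± 0.24 in control and 9.46 ± 0.16 in carnitine.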

How the data were processed

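The deposited values are RMA log2 expression values, made by the authors with Affymetrix Expression Console per the submitters' processing notes, with version and genome build not given in the sources used here. This method corrects for background, gives arrays a shared distribution and summarises probes, so total RNA per sample cannot be read and dim genes are drawn together. Of 34390 probe sets, 23521 have 1 symbol in the platform table, 1814 have several and 9055 are not listed. A gene with several probe sets was read from its brightest one. Carnitine was compared with control in limma 3.58.1 (R 4.3.3, lmFit, eBayes with trend), two-sided, with Benjamini-Hochberg adjustment over 22180 genes. On simulated data with 200 randomly picked genes changed, the fit recovered 67.6% of genes changed 1.5-fold and 94.9% of those changed 2-fold, with 5.73% false calls. The simulated noise was independent between genes, with each gene's own SD, and lacked the spread that genes share across these arrays. These rates therefore need not hold here: Myh7, at -1.64 (SE 0.667), had an adjusted p in limma of 0.71. Permutation tests of correlations drew 100000 resamples, seeded. The members, gene lists and tests were chosen with earlier results of these data known. All members and receptors are named or counted, from each other list up to 4 genes with the smallest p, and per member above background the 3 genes with the highest r; Socs3, Ppargc1a, Esrra, Ppara, Atf4, Creb1 and the single fibre genes were named after their values were seen. Depth is not defined for arrays; their number limits precision. Same-numbered mice of the 2 diets did not deviate together (correlations from -0.13 to 0.24), so no pairing was used.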

Additional observations from a re-analysis of the deposited data

How the results depend on the processing

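Over 18 alternatives (other scalings, variance models, probe set rules, array weights, a covariate, and each array left out), 0 genes passed the adjusted threshold, except for 1 gene, B4galnt2, without control replicate 2 (range 0 to 1), and 0 genes of the 4 lists did. No myokine gene was called under any alternative (adjusted p from 0.37 to 1.00). Fgf21, Il15, Bdnf and Lif kept their direction under every alternative run, the dim-gene filter having left out all members but Fndc5, Il15 and Metrnl. With the slow-fibre mean as a covariate Fndc5 turned to 0.05 and Metrnl to 0.03. Il6 turned to 0.05 after cyclic loess and 0.01 after median centring. After cyclic loess the differences of Bdnf and Fgf21 were smaller, at -0.19 (SE 0.0973) and -0.12 (SE 0.0817), and that of Fndc5 was larger, at -0.41 (SE 0.194). With single arrays left out, Il6 ranged from -0.07 to 0.02, Apln from -0.08 to 0.09, Fndc5 from -0.43 to -0.18, Metrnl from -0.16 to -0.05 and Il15 from 0.09 to 0.33. The correlation of Fndc5 with the slow-fibre markers ranged from 0.83 to 0.94. At the 99th percentile of the silent receptors, 6 members instead of 3 were near background. The cause of these shifts was not tested. With the replicate block, which the data do not bear out as a pairing, Bdnf differed by -0.26 (unadjusted p in limma 0.0181, adjusted 0.61) and 0 genes were called.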

Other observations

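From a list of 30 other factors that muscle secretes, 26 were measured and 20 lay above background. The mean was higher in carnitine for 17 genes and lower for 9 (34.6%), and 0 passed the adjusted threshold in limma. Lower means were found for 52.3% of all genes and for 32.2% of the 11089 genes brighter than the median gene. Lgals1, which encodes galectin-1, had a control mean of 9.49 ± 0.36 and a carnitine mean of 9.89 ± 0.12 (SD, 5 mice each; difference 0.40, SE 0.143, adjusted p in limma 0.71). Sparc, a matrix protein released by fibroblasts and muscle, differed by 0.23 (SE 0.109), and Nampt, which makes a precursor of NAD, by 0.18 (SE 0.0969). Lgals1 and Sparc were the 2 of the 26 genes with an unadjusted p in limma below 0.05, a share near the 6.97% of all genes in either direction. Both were on the higher side, where 3.14% of all genes stood. Apela, the other ligand of the apelin receptor, was near background at 3.64 ± 0.18 and 3.42 ± 0.15. The fibroblast markers, which include the secreted proteoglycan gene Dcn, had a higher mean in carnitine for all 9 measured genes, against 47.7% of all genes. Of the 11089 genes brighter than the median gene, only 32.2% had a lower mean. The 9 included 0 with an unadjusted p in limma below 0.05, against 6.97% of all genes. The list mean of the fibroblast markers ranged from 7.63 to 8.41 in control and from 7.94 to 8.59 in carnitine, and their part in Lgals1 and Sparc was not tested.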
